A study of Mus musculus with 4 samples.

Results

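The genes described here are 43 listed tyrosine kinase genes, taken by symbol from a deposited table that held 47937 genes. Of the 43, 31 encode receptors that span the plasma membrane and 12 encode kinases of the cytoplasm. Total RNA was sequenced from wild-type mouse embryonic fibroblasts (MEF cells), connective tissue cells cultured from mouse embryos. Untreated cells (2 libraries) were compared with cells kept in 50 µM genistein for 24 h (2 libraries), and both groups were maintained in the same serum-containing medium. The sample titles call the untreated cells wild-type control, and the study calls them untreated. In other experiments of the study untreated cells received the solvent DMSO alone. The strain and the age of the embryos are not stated in the labels, nor do they say that the replicates were separate cultures, so p-values measure only the spread between these libraries. Total counts were 28591958 to 31464284 per library, and the listed genes took 0.34% and 0.343% of the gene counts without genistein and 0.398% and 0.402% with it.

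Tyrosine kinases transfer the phosphate of ATP to tyrosine residues of proteins. Receptor tyrosine kinases bind a growth factor, a matrix protein or a protein of a neighbouring cell outside the membrane, pair up and phosphorylate each other inside it, while cytoplasmic tyrosine kinases relay signals from these receptors, from integrins or from cytokine receptors. Fibroblasts are known for their responses to platelet-derived, fibroblast and epidermal growth factors. Genistein is a plant isoflavone that competes with ATP at tyrosine kinases, and the libraries measure RNA, so neither kinase activity nor protein was measured.

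The catalytic loop shows what the listed genes share and how far close relatives differ. The stretch of coding sequence used here runs from the first 3 codons of this loop to the 3 codons that open the activation segment. It was compared in 41 of the 43 genes. In 39 of them the first codons encode histidine, arginine and aspartate and the last encode aspartate, phenylalanine and glycine, and in the other 2, Ror1 and Ror2, lysine stands in place of the arginine and leucine in place of the phenylalanine. It was not found in Ephb6, a receptor known to lack kinase activity, and the stretch of Pdgfrb is not shown here. In 4 genes, Src, Fyn, Yes1 and Lyn, an arginine codon stands first of the 3 codons before the asparagine of the loop, and in the other 37 it stands last of them. The 8 stretches below are those of 4 pairs of relatives in which the RNA of the first gene changed more than that of the second. The 6 codons at the ends are in capitals, the bases are written 5′ to 3′ on the coding strand, and they come from GENCODE M21 transcripts on GRCm38.

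Ptk2b: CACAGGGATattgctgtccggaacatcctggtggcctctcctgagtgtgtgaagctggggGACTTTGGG
Ptk2: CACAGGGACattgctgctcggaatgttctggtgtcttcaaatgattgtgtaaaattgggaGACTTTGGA
Fyn: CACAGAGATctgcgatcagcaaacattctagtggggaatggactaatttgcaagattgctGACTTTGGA
Src: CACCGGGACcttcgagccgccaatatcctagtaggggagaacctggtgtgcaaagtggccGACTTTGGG
Fgfr1: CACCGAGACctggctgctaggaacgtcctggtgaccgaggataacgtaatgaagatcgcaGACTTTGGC
Fgfr2: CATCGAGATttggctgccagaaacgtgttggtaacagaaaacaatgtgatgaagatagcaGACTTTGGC
Tyro3: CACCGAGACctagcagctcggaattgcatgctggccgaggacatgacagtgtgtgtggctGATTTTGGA
Axl: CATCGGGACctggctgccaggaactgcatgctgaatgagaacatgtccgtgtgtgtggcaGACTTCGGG

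These stretches lie in coding exons at chr14:66170521-66171687 on the minus strand for Ptk2b, chr15:73262551-73264218 on the minus strand for Ptk2, chr10:39533851-39533919 on the plus strand for Fyn, chr2:157469167-157469235 on the plus strand for Src, chr8:25572344-25572412 on the plus strand for Fgfr1, chr7:130172865-130172933 on the minus strand for Fgfr2, chr2:119812626-119812842 on the plus strand for Tyro3 and chr7:25761525-25763312 on the minus strand for Axl. Those of Ptk2b, Ptk2, Tyro3 and Axl cross an intron that the positions include and the printed bases leave out. Of 69 bases, Ptk2b and Ptk2 differed at 17, Fyn and Src at 23, Fgfr1 and Fgfr2 at 15, and Tyro3 and Axl at 17. The longest exact run of bases shared by transcripts of any pair of the listed genes was 58, between Ddr2 and Epha4.

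After scaling, counts of many of the listed genes were higher in genistein than in untreated libraries, and those of others lower, mostly by small amounts. The counts are scaled to library size, so RNA per cell was not measured. A gene was tested when its counts passed a filter on low counts, which 42 of the 43 did. Fgfr4, a fibroblast growth factor receptor, had raw counts of 1 and 0 without genistein and 2 and 1 with it and was not tested. At an adjusted p under 0.05 (quasi-likelihood test of edgeR, adjusted by Benjamini-Hochberg over the whole table), 21 of the 42 (50%) were higher and 12 (28.6%) were lower in genistein, against 33.5% of all 16240 genes tested that were higher and 38.2% that were lower. The median log2 fold change of the 42 genes was 0.12, against -0.03 over all genes, and the median size of the change was 0.37, against 0.44. Under the thresholds of the study's methods, which add a log2 fold change beyond 1 in size and a mean normalised read count above 100, 2 genes were higher and 0 lower. Of all genes, 3.92% were higher and 4.16% lower under these thresholds. A normalised read count is the count scaled to the mean effective library size.

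Receptors moved in both directions and cytoplasmic kinases mostly upwards. Of the 30 receptors tested, 14 (46.7%) were higher and 11 (36.7%) lower, with a median log2 fold change of 0.09. Of the 12 cytoplasmic kinases, 7 (58.3%) were higher and 1 (8.33%), Csk, was lower, with a median of 0.19. The median size of the change was 0.40 for receptors and 0.24 for cytoplasmic kinases. The difference between these classes was not tested, since genes are not replicates. In the 33 genes called, the genistein libraries were both above or both below the untreated ones, and 18 of these changed by less than 0.5 on the log2 scale. With 2 libraries per group a call leaves little room for overlap, so the separation adds no support. The share of all tested genes without overlap was not computed. Of the 9 genes not called, the groups overlapped in Yes1, Axl, Epha7 and Fgfr3, both genistein libraries were above in Abl2, Ephb3 and Flt4, and both were below in Ptk2 and Src.

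**Figure D1:**
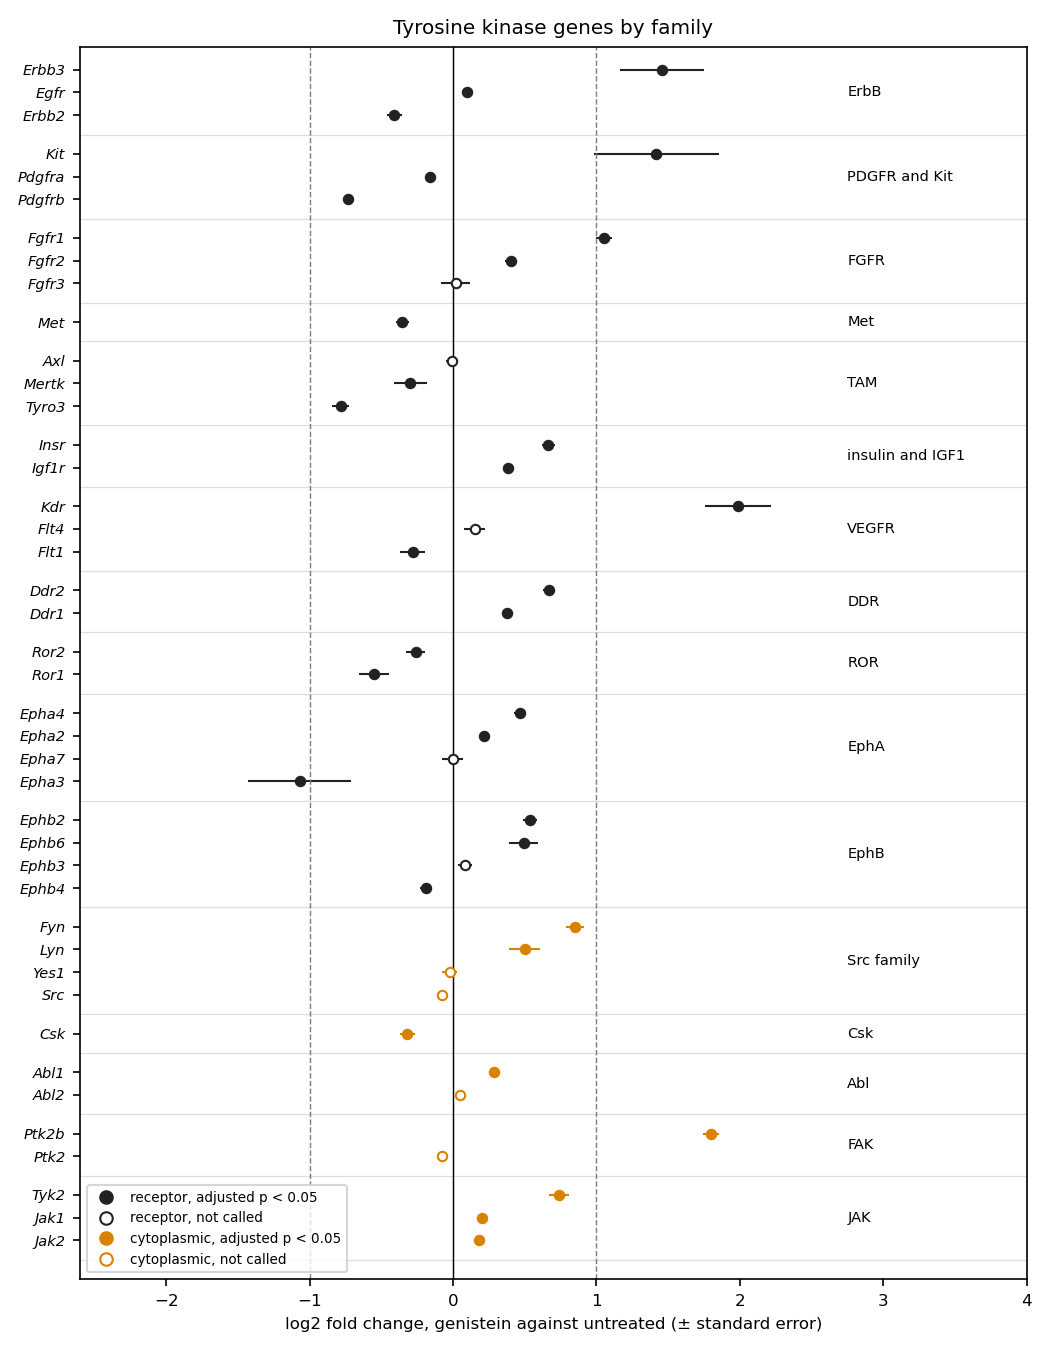
Log2 fold change of the 42 tested tyrosine kinase genes, genistein against untreated, with its standard error, grouped by family. Black points are receptors, orange points cytoplasmic kinases, filled points passed an adjusted p under 0.05 and the dashed lines mark a log2 fold change of -1 and 1. Ptk2b and Fgfr1 lie right of the upper line with short error bars, while Kdr, Erbb3, Kit and Epha3 have long ones.

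Of the 16 families, 14 had at least 2 tested genes. In 5 of them (ErbB, PDGFR and Kit, VEGFR, EphA and EphB) at least 1 gene was higher and at least 1 lower. In the PDGFR and Kit family the higher gene was Kit alone, and in the EphA family the lower gene was Epha3 alone. Each of these genes had 1 library below the count filter and lost its call in some of the alternative fits. In 3 families, the insulin and IGF1 receptors, the DDR receptors and the JAK kinases, every tested gene was higher. In the ROR receptors every tested gene was lower. Over all genes tested, 33.5% were higher and 38.2% lower. How often groups of so few genes would be uniform or split was not tested.

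Among the receptors with high counts, Fgfr1 rose most. Fgfr1 is a receptor for fibroblast growth factors. Its normalised read counts were 691 and 687 without genistein (mean 689 ± 2.96, SD, n = 2) and 1454 and 1407 with it (mean 1431 ± 33.5, SD, n = 2). The level was 2.08-fold higher with genistein, a log2 fold change of 1.05 ± 0.05 (SE, adjusted p = 3.33e-11, edgeR). A test against the fold threshold itself did not call Fgfr1. Its relative Fgfr2 had more reads than Fgfr1 in every library and rose less, from 1398 and 1449 to 1845 and 1924 (log2 fold change 0.40). Of the exon bases of Fgfr2, 3.04% are shared with Ctbp2 on the same strand. Fgfr3 had 303 and 258 against 303 and 265, values that overlap (log2 fold change 0.02).

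The receptors for platelet-derived growth factors fell, Pdgfrb more than Pdgfra. Pdgfrb, which marks mesenchymal and perivascular cells and drives their migration, had 2651 and 2654 normalised reads without genistein (mean 2653 ± 2.07, SD, n = 2) and 1606 and 1592 with it (mean 1599 ± 9.97, SD, n = 2). The libraries of a group lay close together and the level fell by 39.7%, a log2 fold change of -0.73 ± 0.04 (SE, adjusted p = 5.53e-11, edgeR). Pdgfra changed from 4420 and 4375 to 3945 and 3945, a log2 fold change of -0.16. Kit, the stem cell factor receptor of the same family, had 3.996 and 10.6 against 22.5 and 16.2. These are raw counts of 4 and 10 against 24 and 16, and 1 of the untreated libraries was below the count filter. The change of Kit was 1.42 ± 0.44 on the log2 scale (SE, adjusted p = 0.0086, edgeR). Without untreated 1 the log2 fold change of Kit was 0.87 (adjusted p = 0.138), and without genistein 1 it was 1.16 (adjusted p = 0.0847). Without untreated 2 it was 2.24.

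Kdr had the largest log2 fold change of the list, at a low level. Kdr (VEGFR2) is the main receptor for vascular endothelial growth factor and Flt1 (VEGFR1) its high-affinity relative. Kdr had 16.0 and 20.1 normalised reads without genistein (mean 18.05 ± 2.92, SD, n = 2) and 68.5 and 74.9 with it (mean 71.7 ± 4.56, SD, n = 2). Its log2 fold change reached 1.98 ± 0.23 (SE, adjusted p = 9.56e-07, edgeR). Its mean was under 100, so it did not count under the thresholds of the study. Flt1 fell from 359 and 400 to 301 and 324 (log2 fold change -0.28), a call lost without untreated 2 (-0.20, adjusted p = 0.0955, edgeR) and without genistein 1 (-0.22, adjusted p = 0.0501). Flt4 (VEGFR3) had 465 and 419 against 500 and 482 (log2 fold change 0.15, adjusted p = 0.0768, edgeR) and was called without untreated 1 (0.22, adjusted p = 0.0438), with scaling factors from genes alone (0.0248) and with library totals (0.012). None of the 8 endothelial marker genes passed the count filter, with Tie1 and Cldn5 at 0 in every library, and their summed normalised counts were 17.0 and 22.2 in untreated and 21.6 and 26.3 in genistein. Pdgfra, Kit and Kdr lie next to each other among the listed genes on chromosome 5, at 75152292 to 75198215, 75574916 to 75656722 and 75932827 to 75978458 (GRCm38).

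In the ErbB family, which binds epidermal growth factor and neuregulins, Erbb3 and Egfr rose and Erbb2 fell. Erbb3, a neuregulin receptor with little kinase activity of its own, had 11.0 and 15.9 normalised reads in the untreated and 38.4 and 35.4 in the genistein libraries (log2 fold change 1.46 ± 0.29, SE, adjusted p = 3.2e-04, edgeR). Erbb2, the partner that binds no ligand, fell from 1252 and 1198 to 924 and 923 (log2 fold change -0.41 ± 0.05, SE, adjusted p = 2.89e-06, edgeR). Egfr rose from 4585 and 4586 to 4882 and 4917, a log2 fold change of 0.10 that lost its call in 5 of the 10 alternative settings, among them those without untreated 1 (adjusted p = 0.074, edgeR), untreated 2 (0.0505) and genistein 2 (0.0592). The values of Erbb3 rest on raw counts of 11 to 41.

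TAM receptors, which take up dying cells and dampen inflammation through Gas6 and protein S, fell or did not pass the test. Tyro3 had 963 and 963 normalised reads without genistein (mean 963 ± 0.297, SD, n = 2) and 573 and 547 with it (mean 560 ± 18.6, SD, n = 2). It fell by 41.8%, a log2 fold change of -0.78 ± 0.06 (SE, adjusted p = 4.39e-09, edgeR). Mertk, at 194 and 204 against 172 and 152, changed by -0.30 on the log2 scale (adjusted p = 0.0266, edgeR), a call lost without untreated 2 (-0.26, adjusted p = 0.0794) and without genistein 2 (-0.21, adjusted p = 0.182). The call of Mertk was lost as well with DESeq2 (adjusted p = 0.17), with scaling factors from genes alone (0.0503) and with library totals (0.0771). Axl, the listed gene with the highest level per exon length, had 9820 and 9946 against 9827 and 9813, and these values overlap.

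The hepatocyte growth factor receptor and the ROR receptors fell. Met had 11953 and 12153 normalised reads in untreated and 9278 and 9592 in genistein libraries (log2 fold change -0.35). Ror1, a receptor for Wnt5a, had 265 and 244 against 181 and 166 (log2 fold change -0.55 ± 0.10, SE, adjusted p = 1.83e-04, edgeR). Its relative Ror2 had 634 and 646 against 514 and 556 (log2 fold change -0.26). Each of these genes was called lower.

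The insulin receptors and the collagen receptors rose. Insr had 1173 and 1137 normalised reads against 1837 and 1824 (log2 fold change 0.66), and Igf1r, which binds insulin-like growth factors, had 2941 and 3076 against 4001 and 3859 (log2 fold change 0.39). Ddr2, the receptor for fibrillar collagen of mesenchymal cells, had 7386 and 7634 against 11974 and 11912 (log2 fold change 0.67). Ddr1, found in many epithelia, had 2610 and 2620 against 3497 and 3304 (log2 fold change 0.38). All 4 genes were called higher.

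Eph receptors, which bind ephrins on neighbouring cells, were split. Epha4 (log2 fold change 0.47), Epha2 (0.22), Ephb2 (0.54) and Ephb6 (0.49) rose, and Ephb4 fell (-0.19). Epha3 had 19.98 and 21.2 normalised reads in untreated and 11.3 and 8.10 in genistein libraries, a log2 fold change of -1.07 ± 0.36 (SE, adjusted p = 0.0137, edgeR). It rests on raw counts of 20 and 20 against 12 and 8, 1 of the genistein libraries was below the count filter, and the call was lost without untreated 1 (-1.12, adjusted p = 0.0509, edgeR), untreated 2 (-1.03, 0.0676) and genistein 2 (-0.86, 0.12). Epha7 had 410 and 393 against 398 and 405, and Ephb3 had 1046 and 1044 against 1099 and 1115 (adjusted p = 0.153, edgeR). Ephb3 was called higher with scaling factors from genes alone (adjusted p = 0.0349, edgeR) and with library totals (0.0174).

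**Figure D2:**
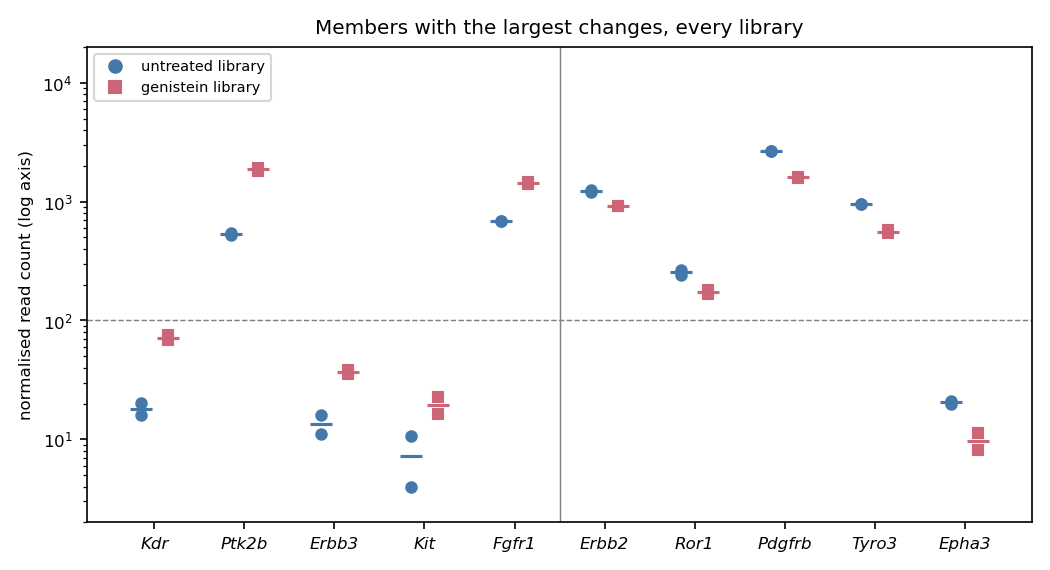
Normalised read counts (log axis) of the 5 genes with the largest and the 5 with the smallest log2 fold changes among those with an adjusted p under 0.05. Blue circles are untreated libraries, red squares genistein libraries, short bars the group means and the dashed line a count of 100. The symbols do not overlap between groups for any gene, which adds no support, since only called genes are shown. Kdr, Erbb3, Kit and Epha3 lie under the dashed line.

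Among listed genes with a mean normalised read count over 100, the largest change was that of Ptk2b, a cytoplasmic kinase. Ptk2b encodes Pyk2, a relative of focal adhesion kinase that responds to calcium, and Ptk2 encodes focal adhesion kinase itself, which acts where integrins hold the matrix. Ptk2b had 528 and 549 normalised reads without genistein (mean 539 ± 14.9, SD, n = 2) and 1934 and 1824 with it (mean 1879 ± 77.5, SD, n = 2). It rose 3.49-fold, a log2 fold change of 1.80 ± 0.06 (SE, adjusted p = 8.69e-14, edgeR), and it passed the test against the fold threshold itself. Ptk2 had 4237 and 4138 against 3924 and 4019 (log2 fold change -0.08, adjusted p = 0.0503, edgeR), and was called lower without untreated 2 (-0.10, adjusted p = 0.042), with RLE size factors (-0.09, 0.0355) and without the count filter (-0.10, 0.0131). Ptk2b lies on chromosome 14 at 66153257 to 66281052 (GRCm38).

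Of the Src family, which relays signals from many receptors, Fyn and Lyn rose. Fyn had 419 and 427 normalised reads in untreated and 745 and 780 in genistein libraries (log2 fold change 0.85 ± 0.06, SE, adjusted p = 4.29e-09, edgeR). Lyn had 152 and 156 against 220 and 215 (log2 fold change 0.50). Src had 2944 and 2907 against 2739 and 2825 (log2 fold change -0.07, adjusted p = 0.0802, edgeR), and Yes1 had 1680 and 1603 against 1535 and 1699. Without the count filter Src was called lower (-0.10, adjusted p = 0.0332, edgeR). Csk, which holds Src kinases inactive by phosphorylating their tail, fell from 1119 and 1143 to 902 and 912 (log2 fold change -0.32). It was the 1 cytoplasmic kinase called lower.

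JAK kinases, which act at cytokine receptors, rose, with Tyk2 ahead. Tyk2 had 545 and 474 normalised reads in untreated and 879 and 828 in genistein libraries (log2 fold change 0.74). Jak1 had 3779 and 3757 against 4318 and 4344 (0.20), and Jak2 had 4360 and 4206 against 4757 and 4964 (0.18). Abl1, a kinase of the cytoskeleton and the nucleus, had 3542 and 3370 against 4232 and 4187 (log2 fold change 0.28), and Abl2 had 3655 and 3820 against 3830 and 3918 (0.05, adjusted p = 0.197, edgeR). Abl2 was called higher with scaling factors from genes alone (adjusted p = 0.0172, edgeR) and with library totals (0.0119).

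The balance between relatives can be read within a library, where scaling cancels. For 15 pairs, chosen with earlier results known, the reads of the first gene were taken as a percent of the reads of both. The 2 groups did not overlap in any pair, which is a description with no test. Over all genes 33.5% were higher and 38.2% lower, and how many other pairs would separate was not computed. Ptk2b was 11.1% and 11.7% of the reads of Ptk2b and Ptk2 in untreated libraries and 33.0% and 31.2% in genistein libraries. Fyn was 12.4% and 12.8% of Fyn and Src, against 21.4% and 21.6%. Ephb2 was 36.6% and 38.4% of Ephb2 and Ephb4, against 50.2% and 49.4%. Genistein libraries thus held close to equal reads of Ephb2 and Ephb4. Fgfr1 was 33.1% and 32.2% of Fgfr1 and Fgfr2, against 44.1% and 42.2%. Kdr was 4.27% and 4.79% of Kdr and Flt1, against 18.5% and 18.8%, with exact 95% intervals of 2.46% to 6.84% in untreated 1 and 14.8% to 22.7% in genistein 1. Pdgfrb fell from 37.5% and 37.8% of Pdgfrb and Pdgfra to 28.9% and 28.8%. Tyro3 fell from 8.93% and 8.83% of Tyro3 and Axl to 5.51% and 5.28%. The intervals cover counting error alone, since PCR copies were not told apart by molecular identifiers.

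**Figure D3:**
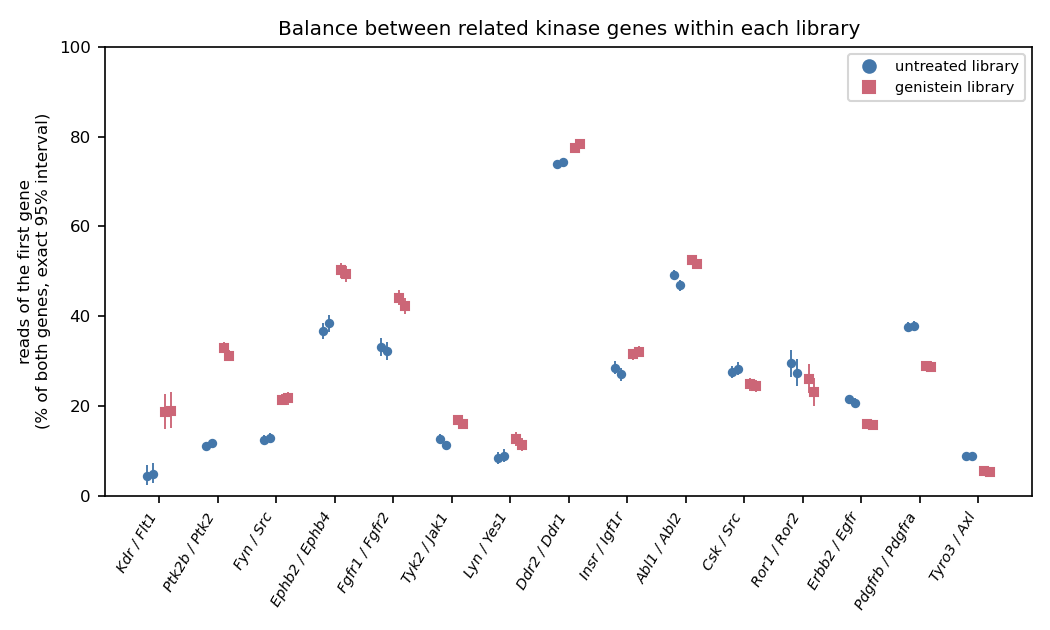
Reads of the first gene as a percent of the reads of both genes, for 15 pairs of related kinase genes, with exact 95% binomial intervals for each library. Blue circles are untreated and red squares genistein libraries, and the pairs are ordered by the difference between the log2 fold changes of their genes, from Kdr and Flt1 to Tyro3 and Axl. The largest rise in percent of reads was that of Ptk2b and the largest fall that of Pdgfrb.

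Levels were compared between genes per length, as FPKM (fragments scaled by exon length and effective library size). In untreated cells they ran from 65.2 and 66.1 FPKM for Axl to 0.0150 and 0.0397 FPKM for Kit. Met (52.0 and 52.9) and Epha2 (35.6 and 34.9) followed Axl. Jak2 (28.98 and 27.96), the highest cytoplasmic kinase, Ddr2 (26.7 and 27.5) and Src (22.5 and 22.2) came next. The 2 untreated libraries placed 15 genes above 10 FPKM and 4 genes, Epha3, Erbb3, Kdr and Kit, below 0.1 FPKM. Of the 41 neighbours in this order, 12 overlapped between the untreated libraries, such as Ephb4 and Ptk2, Csk and Abl1, and Epha3 and Erbb3.

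The order shifted in genistein. Axl stayed first at 65.3 and 65.2 FPKM, while Ddr2 moved from rank 5 to rank 2 at 43.2 and 42.99 FPKM. Met went from rank 2 to rank 3 at 40.4 and 41.8 FPKM, which overlapped Epha2 at rank 4 (41.1 and 40.9 FPKM). Ptk2b moved from rank 29 (2.39 and 2.48 FPKM) to rank 16 by the group mean (8.74 and 8.24 FPKM), where it overlapped the next gene, Epha4 (8.22 and 8.41 FPKM). Pdgfrb went from rank 9 (16.2 and 16.2 FPKM) to rank 15 (9.80 and 9.72 FPKM), and Tyro3 from rank 22 to rank 30. Axl, Met and Epha2 together made 48.8% and 49.0% of the summed FPKM of the receptors in untreated and 44.8% and 45.2% in genistein libraries. The summed FPKM was 313 and 314 for receptors in untreated and 328 and 327 in genistein libraries, and 129 and 128 against 143 and 146 for cytoplasmic kinases. Cytoplasmic kinases thus held 29.3% and 28.9% of the sum of both in untreated and 30.4% and 30.9% in genistein libraries.

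**Figure D4:**
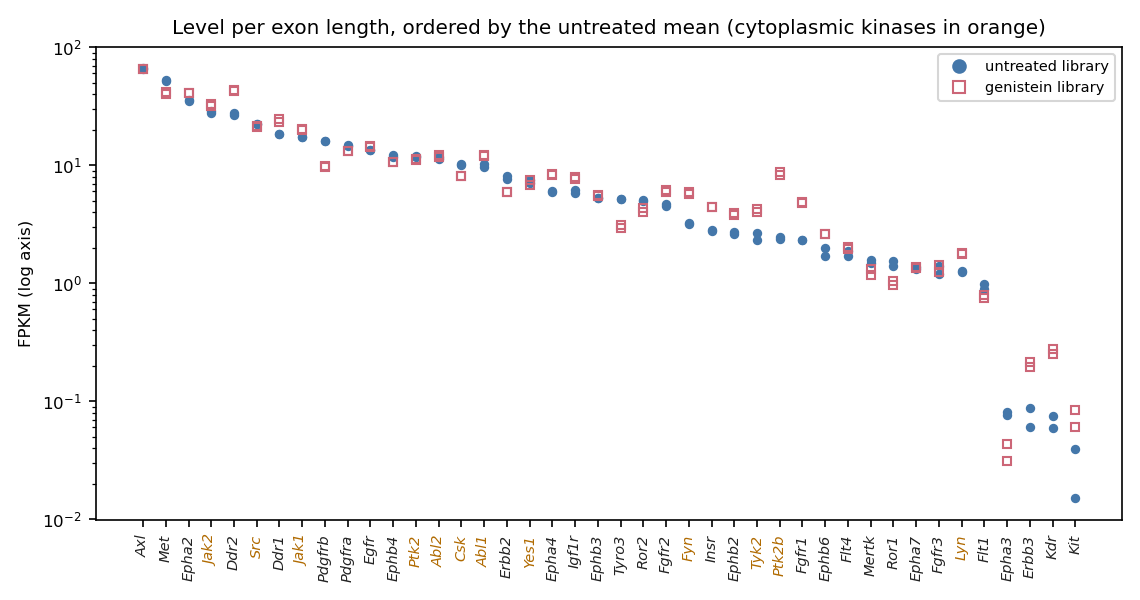
FPKM (log axis) of the 42 tested genes in each library, ordered by the untreated mean. Blue circles are untreated and open red squares genistein libraries, and names of cytoplasmic kinases are orange. Axl is first in both groups, and the squares of Ptk2b, Fgfr1 and Ddr2 stand above their circles while those of Pdgfrb and Tyro3 stand below.

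The listed genes are long, with a median span of 86.3 kb against 15.6 kb over all genes tested. Across the 42 genes the rank correlation of log2 fold change with span was 0.033, and across 16161 genes it was 0.135. These are correlations across genes of the same libraries, and genes are not independent replicates. Exons of Yes1 (8.46% of bases), Tyk2 (8.07%), Lyn (6.09%) and Fgfr3 (13.9%) overlap a gene on the opposite strand. The mean counts of these opposite genes were 41, 3.75, 0.25 and 0.25.

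Other genes of tyrosine kinase signalling were taken from 6 lists. Of the receptor tyrosine kinases outside the listed 43, 9 of 27 were tested, 4 (44.4%) higher and 4 (44.4%) lower, against 33.5% and 38.2% of all genes, with a median log2 fold change of -0.29. Csf1r, the receptor of macrophage colony-stimulating factor, was past the study's thresholds, from 125 and 126 to 335 and 356 normalised reads (log2 fold change 1.46). Ntrk3 changed more, from 50.9 and 46.6 down to 12.2 and 13.2 (-1.94), with counts too low for those thresholds. Of the other cytoplasmic tyrosine kinases, 7 of 20 were tested, 3 (42.9%) higher and 2 (28.6%) lower, with a median of 0.22.

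Of 43 ligands, 34 were tested, with 15 (44.1%) higher and 12 (35.3%) lower, against 33.5% and 38.2% of all genes, and a median log2 fold change of 0.26. Gas6 rose from 2924 and 2941 to 7159 and 7295 normalised reads (log2 fold change 1.30) and Pros1, which encodes protein S, from 642 and 573 to 1303 and 1438 (log2 fold change 1.17). Both are ligands of the TAM receptors. Efna2, an ephrin, fell from 249 and 238 to 96.6 and 79.0 (log2 fold change -1.47), and Vegfc, a ligand of Flt4 and Kdr, from 266 and 282 to 143 and 120 (log2 fold change -1.05).

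The following ligands did not pass the study's thresholds and were chosen after their values were seen. For the platelet-derived growth factors, Pdgfb (log2 fold change -0.87) and Pdgfc (-0.57) fell and Pdgfa (0.51) rose. Kitl, the ligand of Kit, rose from 2359 and 2396 to 4425 and 4797 normalised reads (0.96). Among the ephrins other than Efna2, Efna3 (2.03), Efna4 (0.84) and Efna5 (0.54) rose and Efnb1 (-0.12) fell. Efna1, Efnb2 and Efnb3 were not called. Of the insulin-like growth factors, Igf2 rose (0.98) and Igf1 fell (-0.73). Vegfa, the main ligand of Kdr, rose (0.67), and Wnt5a, a ligand of the ROR receptors, fell (-0.72). Wnt5a and Ror1 were both lower, while Gas6 was higher and Tyro3 lower.

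Of 31 adaptors and proximal effectors, which dock on phosphorylated receptors, 30 were tested, with 17 (56.7%) higher and 10 (33.3%) lower, against 33.5% and 38.2% of all genes, and a median log2 fold change of 0.25. Gab2, a docking protein, rose from 164 and 176 to 382 and 347 normalised reads (1.10). Of 22 protein tyrosine phosphatases, which remove the phosphate, 19 were tested, with 10 (52.6%) higher and 7 (36.8%) lower and a median of 0.15. Ptpn6 rose from 84.9 and 86.8 to 240 and 186 normalised reads (1.32) and Ptpn14 from 4312 and 4688 to 10933 and 10621 (1.26). The largest change among the phosphatases was a fall, that of Ptprb from 98.9 and 95.3 to 14.1 and 22.3 (-2.42). Its counts were under 100, so it did not pass the study's thresholds. Of 21 receptor inhibitors and ubiquitin ligases, 20 were tested, with 9 (45%) higher and 6 (30%) lower and a median of 0.01. Errfi1, a feedback inhibitor of Egfr, fell from 2559 and 2460 to 1163 and 1133 normalised reads (-1.13).

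**Figure D5:**
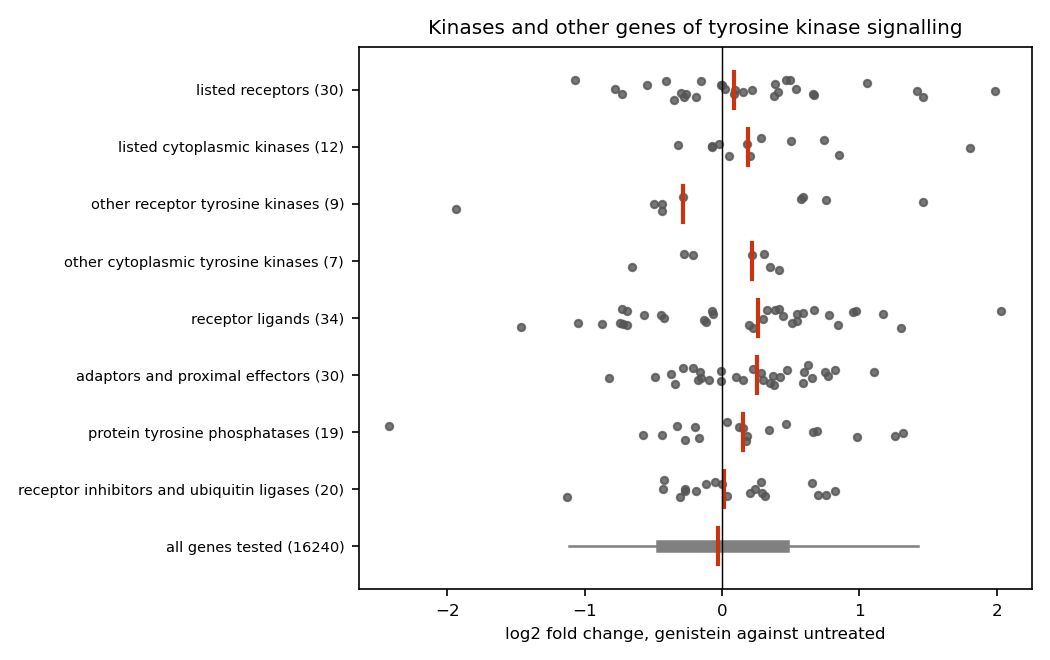
Log2 fold change of the listed receptors and cytoplasmic kinases and of the 6 lists of related genes, with the number tested in brackets. Grey points are genes, red bars medians, and in the bottom row the thick bar spans the 25th to 75th percentile of all genes tested and the thin line the 5th to 95th. The medians lie from -0.29 to 0.26, against -0.03 over all genes.

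Marker genes of cell types were read beside these values. Of 10 fibroblast markers 8 were tested, with 2 higher and 5 lower. Their summed normalised counts were 424690 and 437490 in untreated and 409950 and 400490 in genistein libraries, with Col1a1 at 76193 and 81277 normalised reads in untreated and 72060 and 68035 in genistein libraries, while Thy1 was at 0 in every library. Of 8 haematopoietic markers 3 were tested and 2, Cd68 (log2 fold change 1.496) and Csf1r, rose, with Ptprc at raw counts of 1, 0, 0 and 1 and Adgre1 at 0. Their summed normalised counts were 281 and 273 in untreated and 619 and 658 in genistein libraries. The 3 epithelial markers tested of 8, Krt8, Krt18 and Krt14, fell, and the summed counts of all 8 were 1164 and 1131 against 252 and 233. Of 8 smooth muscle markers 7 were tested and 6 rose, with sums of 13944 and 13672 against 18801 and 18840. Of 8 neural markers 2 were tested and 1 fell. The part of these markers in the values of Kit, Kdr, Pdgfrb and the other listed genes was not tested. In bulk RNA, fewer cells of a type and less RNA per cell cannot be told apart.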

How the data were processed

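Per the labels and the study's methods, total RNA of MEF cells was depleted of ribosomal RNA and sequenced from stranded libraries. The authors trimmed reads with Trim Galore v0.4.0, aligned them to mm10 with STAR v2.5.2 and counted them with TEtranscripts v1.5.1 on Gencode M9 genes. The deposited values are raw counts per gene and repeat. The strand option of the counter is not given in the sources used here, so overlapping genes are uncertain. Genes and repeats were fitted together in edgeR 4.0.16 (R 4.3.3): filterByExpr by group with a minimum count of 10 (16240 genes and 1118 repeats kept), trimmed mean of M-values (TMM) scaling, a two-sided quasi-likelihood test and Benjamini-Hochberg adjustment over all kept entries. The 1 entry naming no gene (0.00208% to 0.00314% of counts) was left out. Standard errors are the log2 fold change over the square root of F. FPKM and positions used GENCODE M21 on GRCm38, the assembly of mm10. The study's methods used DESeq2, which served here as an alternative (1.42.0). Exact permutation of 2 against 2 libraries cannot go below p = 0.333. Counts of replicates differed beyond sampling noise (chi-square over degrees of freedom 5.89 and 13.2). The fit was tested on counts simulated from its own dispersions, with 200 entries changed. It called 190 of them at 1.5-fold and 200 at 4-fold, with 22 and 25 unchanged entries called. In the data 33.5% of genes were called higher and 38.2% lower, so the simulation cannot give the error rate of these calls. Named in full were genes past the study's thresholds and the 5 largest and 5 smallest log2 fold changes among those called. Of each list of related genes, up to 3 genes per direction past those thresholds were named, except where stated. Members, families, lists and pairs were chosen with earlier results of these data known. Alternatives covered scaling, filtering, tool, thresholds, leaving out 1 library at a time and a replicate block.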

Additional observations from a re-analysis of the deposited data

How the results depend on the processing

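Over the alternatives, 19 to 24 genes were called higher and 9 to 14 lower, against 21 and 12. Of the 42 genes, 28 kept direction and side of the threshold in all 10 settings, and no called gene changed direction. With TMM factors from genes alone, the median log2 fold change was 0.13 for receptors and 0.23 for cytoplasmic kinases, Axl was at 0.0342, Epha7 at 0.0427 and Yes1 at 0.0198. With library totals alone, the medians were 0.16 and 0.26, Axl was at 0.0605, Epha7 at 0.0687 and Yes1 at 0.0465. Without the count filter, the cytoplasmic median was 0.17 and Fgfr3 was at -0.00783. Factors from genes alone and library totals moved the median of all genes from -0.03 to 0.01 and 0.04. Of the genes called, DESeq2 lost Egfr, Kit, Mertk, Flt1 and Epha3 (19 higher and 9 lower). A mean count over 10 instead of 100 gave 5 genes higher (adding Kdr, Erbb3 and Kit) and 1 lower (Epha3) under the study's thresholds, and the test against the fold threshold gave 1 (Ptk2b). Leaving out each library in turn gave 20 higher and 10 to 11 lower; log2 fold changes ran from -0.0344 to 0.0256 for Epha7, from -0.0960 to 0.0540 for Yes1 and from -0.0937 to 0.134 for Fgfr3. The lone library of a group was then assumed to vary like the other group. A fit with the replicate block gave 21 higher and 12 lower, 2 and 0 under the study's thresholds. Same-numbered libraries did not deviate together (correlation -0.0265). This cannot tell whether they were handled as pairs, which the labels do not state. Depth limits Kit, Erbb3, Kdr and Epha3, whose mean counts were under 100.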
